A study of Mus musculus with 3 samples.

Results

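The lung endothelium of mice taken 30 h after an injection of melanoma cells was compared, gene by gene, with that of control mice, with the endothelial cells (ECs) of each library pooled whatever their class. A barcode, the tag of 1 droplet, counted as endothelial when it had 1000 to 5000 detected genes, under 20% of its unique molecular identifiers (UMIs, tags that each mark 1 captured RNA molecule) from mitochondrially encoded genes, and at least 2 UMIs of Pecam1 and Cdh5 together. Among barcodes within the first 2 limits, the limit on Pecam1 and Cdh5 kept 11231 of 11506 in control (97.6%) and 9278 of 9513 at 30 h (97.5%). These are 20509 of the 31092 endothelial barcodes of the whole series. Barcodes with exactly 2 such UMIs, just inside the rule, numbered 251 in the control library and 195 at 30 h, and those with 1 UMI, just outside it, 152 and 141.

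All mice were C57BL/6 with the genotype WT. Control mice received PBS through the tail vein and were taken at 6 h. Melanoma mice received 200000 B16-F10 cells in 100 µl by the same route and were taken at 30 h, and a library at 6 h after the same injection is quoted beside the values below. B16-F10 is a mouse skin melanoma line, here carrying the dye CellTracker Green, and per the labels 2 mice were used per treatment, so each library pools animals. Pecam1-positive, Ptprc-negative cells were sorted from lungs digested for an hour with collagenase, which means that the marker of the sort is also part of the rule. No PBS library taken at 30 h was analysed here, so treatment, time after injection and library cannot be told apart. As each group is 1 library, differences have no replicate check and were not tested. All intervals are at 95% and cover counting error only.

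The pulmonary capillary bed is built from general capillary ECs (gCap) and from aerocytes (aCap), thin cells over which gas is exchanged. It is the first bed that cells injected into a vein meet. Lung ECs hydrolyse blood lipids at their surface, take up and degrade prostaglandins, present antigen, and hold antioxidant enzymes under the transcription factor NRF2. Their state is read by VEGF and Notch signals, by flow, by glucocorticoids and by cytokines that act through JAK and STAT proteins.

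The endothelial sum held 90853430 UMIs in the control library and 81485079 at 30 h, with a median of 7782 and 8675.5 UMIs and of 3164 and 3281 genes per barcode. Pecam1 and Cdh5 chose the barcodes, so their levels are given as a description and check nothing. Cdh5, the cadherin of endothelial junctions, stood at 1636 and 1788 counts scaled to a total of 1000000 UMIs (CPM), and Pecam1 at 1097 and 1237 CPM. The 8 endothelial markers that the rule did not use (Tie1, Tek, Egfl7, Erg, Emcn, Cldn5, Ramp2 and Eng) had log2 ratios of 30 h over control between −0.38 and 0.58. The 2 libraries shared 37 barcodes (0.329% of the control barcodes and 0.399% of those at 30 h). In sums of this kind, fewer cells of a type and less RNA per cell cannot be told apart.

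The 8801 genes tested had 10 CPM or more as the mean of both libraries, and 719 of them (8.17%) differed by 1.5-fold or more on the scale of CPM + 1. Of these, 344 (3.91%) were higher at 30 h and 375 (4.26%) lower, and only these are said below to have risen or fallen. A 2-fold limit left 65 higher genes (0.739%) and 74 lower ones (0.841%). By any amount 39.7% of genes were higher at 30 h, and the median log2 ratio over all genes tested was −0.08, with 90% of genes between −0.56 and 0.52. With ratios centred on that median the split was 460 higher and 235 lower genes, so the balance of directions depended on the scaling. Depth was not the limit: for 83% of genes tested the counting interval of the ratio excluded equality. Fold changes below are ratios of the CPM themselves, with exact intervals.

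**Figure D1:**
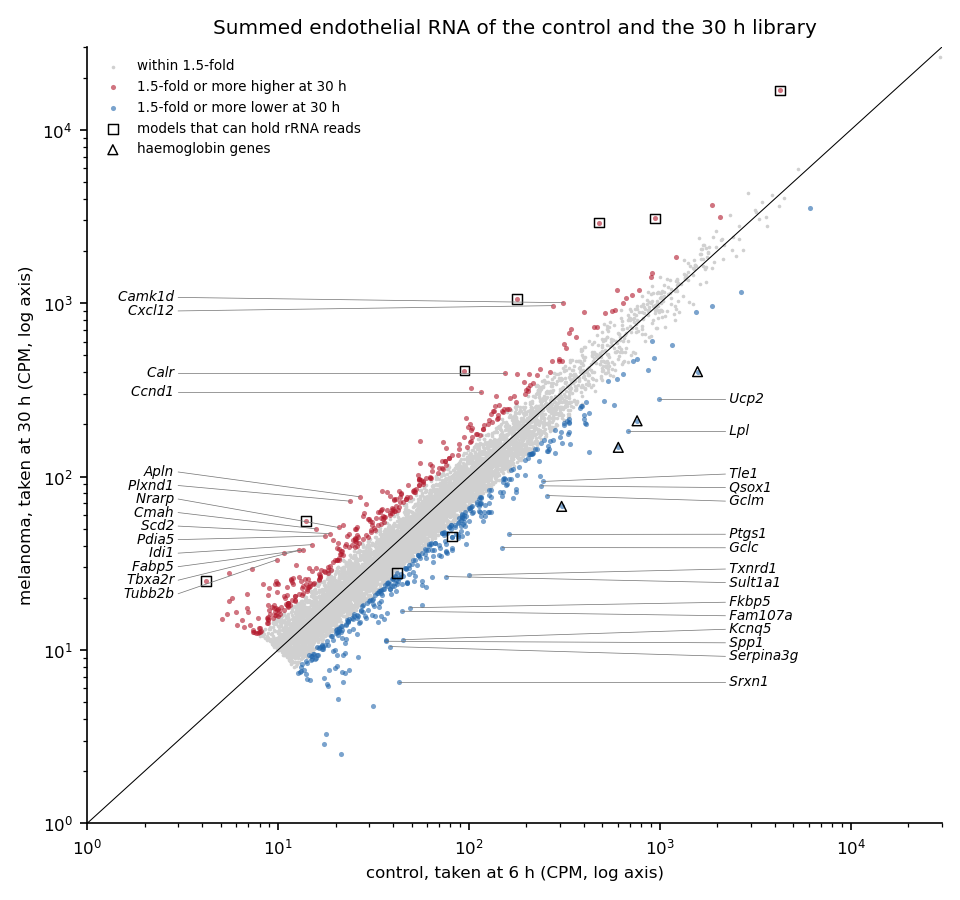
Summed endothelial RNA of every gene tested (points, 8801 genes), in CPM, in the control library (x axis, log scale) and the 30 h library (y axis, log scale), with 14 of the 15 largest rises and the 15 largest falls named. Most genes lie near the diagonal; the models that can hold ribosomal RNA reads (squares) lie mostly above it and the haemoglobin genes (triangles) below it.

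Genes of the antioxidant program were among the falls. NRF2 binds antioxidant response elements when electrophiles or oxidants release it from its inhibitor, and its targets make glutathione, reduce thioredoxin and supply NADPH. Of 22 NRF2 targets tested, 9 fell and none rose, with a median log2 ratio of −0.28. Nqo1, a quinone reductase, stood at 21.4 CPM in control, 21.0 CPM at 6 h and 2.50 CPM at 30 h, 8.53-fold lower than in control (7.38 to 9.90). Srxn1, which reactivates peroxiredoxins, stood at 42.8, 44.1 and 6.58 CPM in the same order, 6.51-fold lower (5.95 to 7.14). Both were near their control level in the other melanoma library, which shares the control.

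The enzymes of glutathione and thioredoxin followed. Gclc and Gclm, the 2 subunits of the enzyme that starts glutathione synthesis, fell from 149.5 to 39.0 CPM (3.84-fold, 3.69 to 3.99) and from 257 to 77.7 CPM (3.31-fold, 3.21 to 3.40). Txnrd1, the cytosolic thioredoxin reductase, fell from 100.5 to 27.0 CPM (3.71-fold, 3.54 to 3.89). Gsr, which reduces oxidised glutathione, fell 2.15-fold, and Me1 and Pgd, which make NADPH, fell 2.96-fold and 1.82-fold. Hmox1, which breaks down haem, fell 2.53-fold from 17.4 to 6.86 CPM. The remaining 13 targets stayed within 1.5-fold, among them the ferritin genes Fth1 (1879.6 and 1594 CPM) and Ftl1 (1322 and 1102 CPM). G6pdx, Taldo1 and Tkt, enzymes of the same pentose phosphate pathway as Pgd, had log2 ratios of −0.23, 0.18 and 0.27, so the pathway did not move as one.

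The promoters of 3 of these genes are shown because their targets fell together and each holds the letters of an antioxidant response element. The element was searched as TGACNNNGC on both strands in RefSeq promoters of GRCm38.p6, 250 bases before to 50 bases after a start. It overlaps the AP-1 motif in its first letters. Capitals mark the match, here on the strand opposite to the gene. The windows are chr3:122245383-122245471 for Gclm, whose match begins 134 bases before the start, chr10:82859074-82859162 for Txnrd1, with the match 92 bases before the start of 1 of its 3 promoters, and chr2:152105542-152105570 for Srxn1, where the match begins at base 29 after the start, all on the plus strand.
Gclm: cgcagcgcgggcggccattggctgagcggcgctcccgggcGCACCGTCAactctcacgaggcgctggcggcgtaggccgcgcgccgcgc
Txnrd1: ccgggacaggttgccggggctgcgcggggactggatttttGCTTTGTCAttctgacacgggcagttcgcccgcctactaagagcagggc
Srxn1: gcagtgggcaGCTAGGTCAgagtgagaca
Over the list, 10 of 29 promoters (34.5%) held a match, against 12.4% of all 32851 promoters of the same length. Of 28 listed genes 22 had a promoter in the table. Nqo1, the target with the largest fall, had no match in its window.

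**Figure D2:**
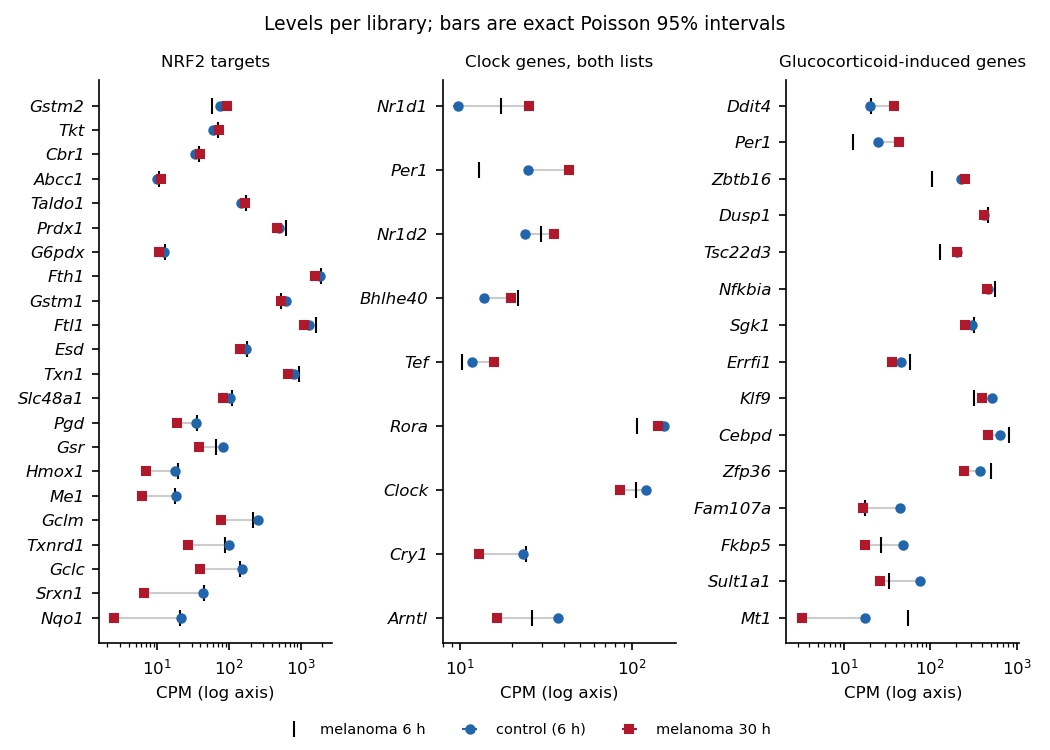
CPM (log axis) of the NRF2 targets, the clock genes and the glucocorticoid-induced genes tested, in the control library (circles), the melanoma library at 6 h (ticks) and that at 30 h (squares), with exact Poisson intervals that are mostly narrower than the symbols. For the NRF2 targets that fell, such as Nqo1 and Srxn1, ticks and circles lie close together, whereas Fam107a and Sult1a1 were low in both melanoma libraries.

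Most genes of sterol synthesis tested rose. The cell raises them through the factor SREBP2 when its membranes lack cholesterol. Of 16 genes of the list, 10 rose and 1 fell, with a median log2 ratio of 0.70. Idi1, an isomerase of the pathway, stood at 15.01 CPM in control, 16.5 CPM at 6 h and 40.5 CPM at 30 h, 2.70-fold higher than in control (2.53 to 2.87). Cyp51, the sterol demethylase, rose from 6.03 to 16.6 CPM (2.75-fold, 2.49 to 3.05), and Fdps, which makes farnesyl diphosphate, from 19.4 to 43.2 CPM (2.22-fold, 2.10 to 2.35). Insig1, Srebf2, Msmo1, Hmgcs1, Stard4 and Fdft1 rose by 1.62-fold to 2.20-fold. The 1 gene that fell was Mylip, a ligase that removes LDL receptors from the cell surface, from 75.6 to 37.3 CPM (2.03-fold, 1.94 to 2.12). Most of these genes have low counts, and with a mean of at least 50 CPM required only Mylip was left, so that the list's median was −0.9998.

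Genes by which capillaries handle blood lipids did not share a direction. Of 12 tested, 2 rose and 3 fell, with a median log2 ratio of −0.07. Lpl, the lipase that frees fatty acids from lipoproteins, stood at 683 CPM in control, 710.1 CPM at 6 h and 183 CPM at 30 h, 3.73-fold lower (3.66 to 3.79). Gpihbp1, which carries it to the capillary lumen, had 1209.9 and 930.2 CPM, and Cd36, the fatty acid translocase, 2081 and 2313 CPM. Ucp2, a carrier of the inner mitochondrial membrane, stood at 990.0, 619 and 281 CPM in control, at 6 h and at 30 h, 3.52-fold lower at 30 h (3.47 to 3.57). Pnpla2, a lipase of lipid droplets, fell 2.09-fold. The fatty acid binding proteins Fabp4 and Fabp5 rose 1.92-fold and 2.78-fold, Fabp5 from 13.6 to 37.8 CPM. Both had a higher level in near-empty barcodes (10 to 100 UMIs) of the same libraries, 519 and 904 CPM for Fabp4 and 81.0 and 130.4 CPM for Fabp5. With free RNA subtracted the log2 ratio of Fabp5 was 1.55, against 1.41 without, and the part of free RNA in the rise of Fabp4 was not tested. Scd2, a desaturase of fatty acids, rose 2.50-fold from 18.7 to 46.8 CPM.

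Chaperones fold proteins in the cytosol and in the endoplasmic reticulum (ER). Among 23 heat shock and chaperone genes, 6 rose and 4 fell, with a median log2 ratio of 0.28. Calr, a calcium-binding chaperone of glycoproteins, stood at 154 CPM in control, 189 CPM at 6 h and 395 CPM at 30 h, 2.56-fold higher (2.51 to 2.61). Pdia6 and Pdia4, which form disulfide bonds, rose 2.26-fold and 1.79-fold, Hsp90b1 rose 1.87-fold from 313 to 584 CPM, and Hspa5, the ER Hsp70, rose 1.60-fold from 198 to 316 CPM. These are genes of the ER, a trait picked out after their values were seen, and the remaining riser was Hsph1, a cytosolic gene at 12.9 and 20.9 CPM that stood at 56.4 CPM at 6 h. Pdia5, of the same family but not on the list, rose 2.58-fold. The falling genes were cytosolic. Hspb8 fell 2.89-fold from 26.3 to 9.11 CPM, and Dnajb4, Hspa1b and Bag3 fell by 1.77-fold, 1.65-fold and 1.55-fold. Hspa1b shares nearly all of its sequence with Hspa1a, so reads can be split between them.

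Stress sensors of the ER can also start an amino acid response. In the list of unfolded protein and amino acid response genes, 3 of 13 rose and 2 fell, with a median log2 ratio of −0.21. Sdf2l1 and Creld2, small ER proteins, rose 1.84-fold and 1.60-fold beside Hspa5. Mthfd2, a folate enzyme of mitochondria, fell 3.97-fold from 20.6 to 5.20 CPM (3.57 to 4.42), and Asns, asparagine synthetase, fell 1.90-fold from 33.7 to 17.8 CPM. Atf4, their shared regulator, had a log2 ratio of −0.26, and Ddit3 0.21.

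Tubulins are the subunits of microtubules. Of 7 tubulin genes tested, 5 rose and none fell, with a median log2 ratio of 0.86. Tuba1a, an alpha chain of microtubules, stood at 344 CPM in control, 491 CPM at 6 h and 712 CPM at 30 h, 2.07-fold higher (2.04 to 2.10). Tubb2b rose 3.36-fold from 9.85 to 33.1 CPM, and Tubb2a, Tuba1b and Tubb5 by 1.88-fold, 1.81-fold and 1.52-fold. Tubb4b and Tubg1 had log2 ratios of 0.04 and −0.41. Tubulin genes are near copies of one another, and the counting can have shared reads among them.

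**Figure D3:**
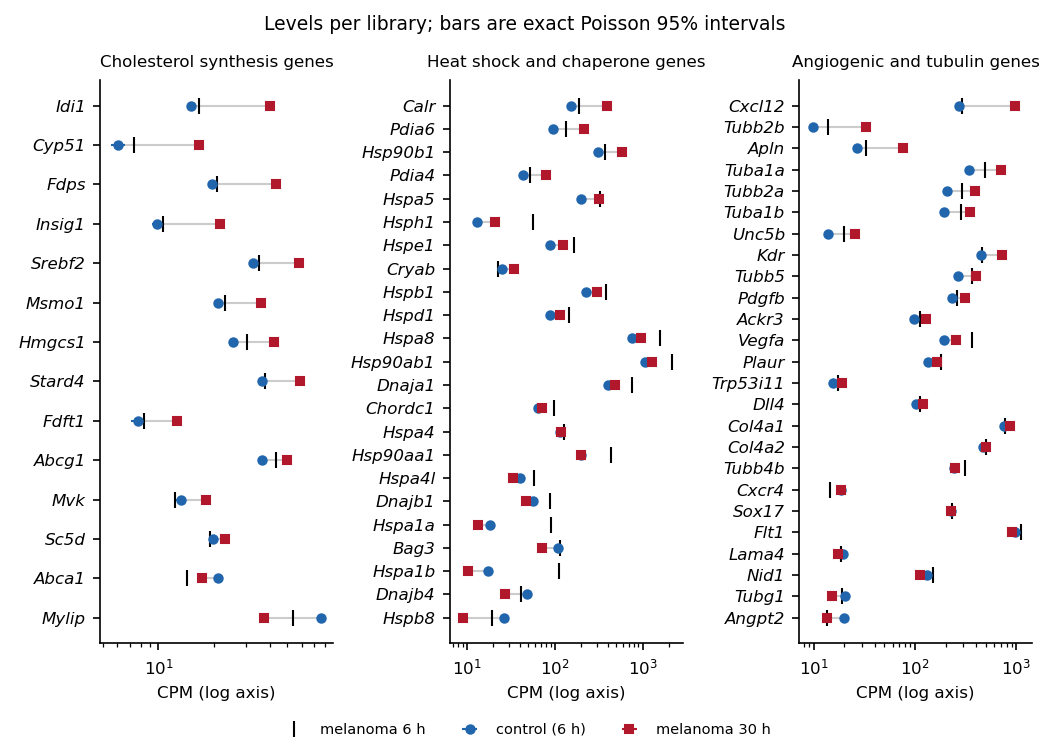
CPM (log axis) of 14 of the 16 cholesterol synthesis genes, the heat shock and chaperone genes, and the angiogenic and tubulin genes, as tested, in the control library (circles), the melanoma library at 6 h (ticks) and that at 30 h (squares), with exact Poisson intervals. Sterol genes such as Idi1 lie near control at 6 h and above it at 30 h, and the cytosolic heat shock genes Hsph1, Hspa1a and Hspa1b have their highest value at 6 h.

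Angiogenic genes and their ligands rose in part. Of 18 tip-cell and angiogenic genes, 4 rose and none fell, with a median log2 ratio of 0.25. Cxcl12, the chemokine that holds CXCR4-bearing cells, stood at 274 CPM in control, 293 CPM at 6 h and 967 CPM at 30 h, 3.53-fold higher (3.48 to 3.58). Its receptors Cxcr4 and Ackr3 had log2 ratios of 0.02 and 0.40. Apln, a peptide ligand made by tip cells, rose 2.85-fold from 26.8 to 76.5 CPM (2.72 to 2.99), and its receptor Aplnr rose 2.02-fold from 38.4 to 77.4 CPM (1.93 to 2.10). Kdr, the main VEGF receptor, rose 1.61-fold from 450 to 724 CPM, and Unc5b, a netrin receptor of tip cells, rose 1.85-fold. Plxnd1, the semaphorin receptor of vessels, rose 3.02-fold from 23.9 to 72.1 CPM, with 39.4 CPM at 6 h.

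VEGF, angiopoietin and Notch signals shape vessel growth. Of 8 VEGF ligands and receptors, Kdr alone passed it, and the list's median was 0.25. Vegfa had 192 CPM in control, 367 CPM at 6 h and 252 CPM at 30 h, and Flt1 had 965 and 911 CPM in control and at 30 h. Angpt2, a destabiliser of vessels, had 20.1 and 13.7 CPM, and none of 6 angiopoietin and Tie genes passed 1.5-fold. Among 14 Notch genes, 3 rose and none fell, with a median of 0.22. They were Nrarp and Hes1, targets of Notch, at 2.45-fold and 1.77-fold, and the ligand Dll1 at 1.52-fold. Hey1, another target, had a log2 ratio of −0.45, so the targets did not share a direction.

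Among cyclin genes of the G1 phase Ccnd1 and Ccnd2 rose. Ccnd1, cyclin D1, stood at 115 CPM in control, 169.9 CPM at 6 h and 308 CPM at 30 h, 2.66-fold higher (2.60 to 2.73), and Ccnd2 rose 1.62-fold to 144 CPM, with 145 CPM at 6 h. The inhibitor Cdkn2d fell 1.58-fold, and Cdkn1a (p21) had 708 and 500.0 CPM. Over the 14 G1 genes tested, 2 rose and 1 fell, with a median of −0.25. Of 25 listed cell cycle genes only 9 had the mean of 10 CPM needed for a test. None of these, which included Pcna, Mcm3 and Stmn1, passed 1.5-fold (median −0.09), a limit that 8.17% of all genes tested passed.

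Prostaglandin metabolism is a known function of lung capillaries. Of 8 of its genes tested, 3 fell, 1 rose and 4 stayed within 1.5-fold, with a median log2 ratio of −0.16. Ptgs1, the constitutive cyclooxygenase, stood at 163 CPM in control, 102 CPM at 6 h and 46.4 CPM at 30 h, 3.51-fold lower (3.38 to 3.64). Hpgd, the enzyme that inactivates prostaglandins, stood at 6098, 4605 and 3536 CPM, 1.72-fold lower at 30 h (1.72 to 1.73), and Ptgs2, the inducible cyclooxygenase, fell 2.08-fold from 14.2 to 6.84 CPM. The transporter Slco2a1 had 1198 and 965 CPM. Tbxa2r, the thromboxane receptor, rose 2.90-fold from 12.9 to 37.6 CPM (2.71 to 3.11).

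Clock genes were on opposite sides. In the cellular clock Arntl and Clock drive the Per, Cry and Nr1d genes, and Nr1d1 in turn represses Arntl. The mice of the 2 libraries were taken a whole day apart after injection, and the hour of day is not given in the sources used here. Arntl stood at 37.3 CPM in control, 26.3 CPM at 6 h and 16.4 CPM at 30 h, 2.27-fold lower (2.13 to 2.43), and Cry1 fell 1.82-fold from 23.4 to 12.9 CPM. Nr1d1 stood at 9.80, 17.3 and 25.0 CPM, 2.56-fold higher (2.36 to 2.77), and Per1 at 24.8, 13.0 and 43.2 CPM, 1.75-fold higher (1.66 to 1.84). In counts, 2 of 4 activators and night-phase genes fell and none rose (median −0.65), and 2 of 5 repressors and day-phase genes rose and none fell (median 0.54).

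The promoters of Per1 and Cry1 are shown because both hold an E-box, the palindrome CACGTG that Arntl and Clock bind, although the genes differed in opposite directions. The windows are chr11:69098743-69098828 on the plus strand, with the match 166 bases before the start of 1 of the 2 promoters of Per1, and chr10:85185069-85185154 on the minus strand, with the match 60 bases before the start of Cry1. Capitals mark the E-box.
Per1: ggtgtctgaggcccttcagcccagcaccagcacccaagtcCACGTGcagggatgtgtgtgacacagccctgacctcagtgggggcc
Cry1: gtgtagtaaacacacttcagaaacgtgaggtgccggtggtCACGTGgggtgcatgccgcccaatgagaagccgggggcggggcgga
An E-box was found in 2 of 10 promoters of the list of activators and night-phase genes. These were promoters of Cry1 and Bhlhe41, and those of Arntl and Clock held none. In the list of repressors and day-phase genes 4 of 11 promoters held one, against 7.15% of all promoters.

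Glucocorticoid-induced genes split in the same comparison. Of 15 tested, 5 fell and 2 rose, with a median log2 ratio of −0.37. Fkbp5, a chaperone of steroid receptors, stood at 49.2 CPM in control, 26.8 CPM at 6 h and 17.5 CPM at 30 h, 2.81-fold lower (2.65 to 2.98). Sult1a1, a sulfotransferase, stood at 75.9, 33.4 and 26.5 CPM (2.86-fold lower at 30 h), and Fam107a, an actin-binding protein, at 44.6, 17.7 and 16.7 CPM (2.66-fold lower). In these 3 genes most of the difference was present in the 6 h library. Zfp36 fell 1.54-fold, and the metallothionein Mt1 had 17.7, 54.9 and 3.28 CPM. Mt1 was several times higher in near-empty barcodes, at 157 CPM in control and 45.9 CPM at 30 h. Ddit4 and Per1 rose 1.90-fold and 1.75-fold, and Dusp1, Tsc22d3 and Nfkbia differed by at most 0.02 on the log2 scale.

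Growth factors of the BMP family signal through receptors and Smad proteins. Of 24 BMP, TGF-beta and activin genes, 5 fell and none rose, with a median log2 ratio of −0.26. Bmp4, a ligand, fell 2.39-fold from 57.0 to 23.8 CPM (2.27 to 2.52) with 61.0 CPM at 6 h, and Bmp6, the ligand of sinusoidal and capillary ECs, fell 1.55-fold from 724 to 466 CPM. The signal transducer Smad1 and the receptor Acvr2b fell 1.62-fold and 1.61-fold. Id2, a target of these signals, fell 2.04-fold from 127 to 62.2 CPM, but Id1 and Id3, further targets, had log2 ratios of 0.08 and −0.28. The receptors Bmpr2 and Acvrl1 had −0.25 and 0.24.

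Cytokines signal in ECs through JAK and STAT proteins, and immediate early genes answer many stimuli. Of 26 JAK-STAT and SOCS genes, 7 fell and none rose (median −0.31), and of 17 immediate early genes 5 fell and 1 rose (median −0.44). Pim1, a kinase induced by STAT proteins, stood at 92.2 CPM in control, 119.0 CPM at 6 h and 45.5 CPM at 30 h, 2.03-fold lower (1.95 to 2.11). Pim3, its paralogue, had 109, 156 and 88.2 CPM, which did not pass the limit at 30 h, and Pim2 stayed near 3 CPM in each library. Socs2, a feedback inhibitor, fell 2.05-fold, and Stat3 fell 1.53-fold from 221 to 145 CPM. Fos and Fosb, which tissue digestion is known to induce, fell from 1550.1 to 887 CPM and from 335 to 182 CPM. The study checked markers of reactive capillaries (rCap) at 6 h with an RT-qPCR panel. None of its 6 tested genes passed 1.5-fold, a limit that 8.17% of all genes tested passed. Their log2 ratios ran from −0.54 for Osmr to 0.32 for Tmem252. Bcl3 stood at 25.7 CPM in control, 65.5 CPM at 6 h and 23.2 CPM at 30 h. Inhbb, the seventh gene, lay under the minimum of 10 CPM for a call, with 4.01, 28.3 and 7.29 CPM, a ratio of 1.82 at 30 h (1.59 to 2.08). The study chose that panel on cells that included these libraries. It defined rCap as a cluster of cells and reported its markers as lower again by 30 h. The sums here hold all endothelium and not that cluster.

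In the endothelial sum, genes of NF-kB and interferon responses included more falls than rises. Of 13 NF-kB genes, 4 fell and none rose (median −0.20), among them Nfkbiz, 2.05-fold from 97.4 to 47.5 CPM, and Icam1, a leukocyte receptor, 1.84-fold from 260 to 141 CPM. Of 16 interferon-gamma GTPases and related genes, 6 fell and 1 rose (median −0.42). Iigp1, which guards against intracellular parasites, fell 1.95-fold from 307 to 157 CPM, and Gbp9 rose 1.61-fold. Of 21 type I interferon genes, 4 fell and 1 rose (median −0.19). Ifit1, a sensor of foreign RNA, fell 1.88-fold from 91.3 to 48.6 CPM, and Bst2, a tether of virus particles, rose 1.55-fold from 469 to 725 CPM. Gene families such as Ifit, Gbp and Iigp1 with Gm4951 have near copies whose reads can be split.

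The next lists hold genes of antigen presentation. Of 17 MHC class I and immunoproteasome genes, 2 fell and none rose (median −0.13). B2m, the shared light chain, had 2174 and 2171 CPM, while H2-Q6 fell 1.93-fold and H2-T22 1.51-fold, both of a family of near copies. Of 7 MHC class II genes, Cd74, the invariant chain, fell 1.56-fold, H2-DMa rose 1.59-fold, and the median was 0.30. The serpins Serpina3g and Serpina3f, inhibitors of intracellular proteases, fell 3.69-fold from 38.7 to 10.5 CPM and 2.85-fold from 18.1 to 6.33 CPM, with 65.6 and 26.7 CPM at 6 h. Cytokine genes and receptors had 2 falls and 1 rise among 17. Csf1, a growth factor of macrophages, fell 2.10-fold from 81.3 to 38.7 CPM, and Il31ra, a cytokine receptor, rose 5.02-fold from 5.54 to 27.8 CPM (4.55 to 5.54). Il31ra stood higher in near-empty barcodes, at 17.1 and 71.3 CPM.

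**Figure D4:**
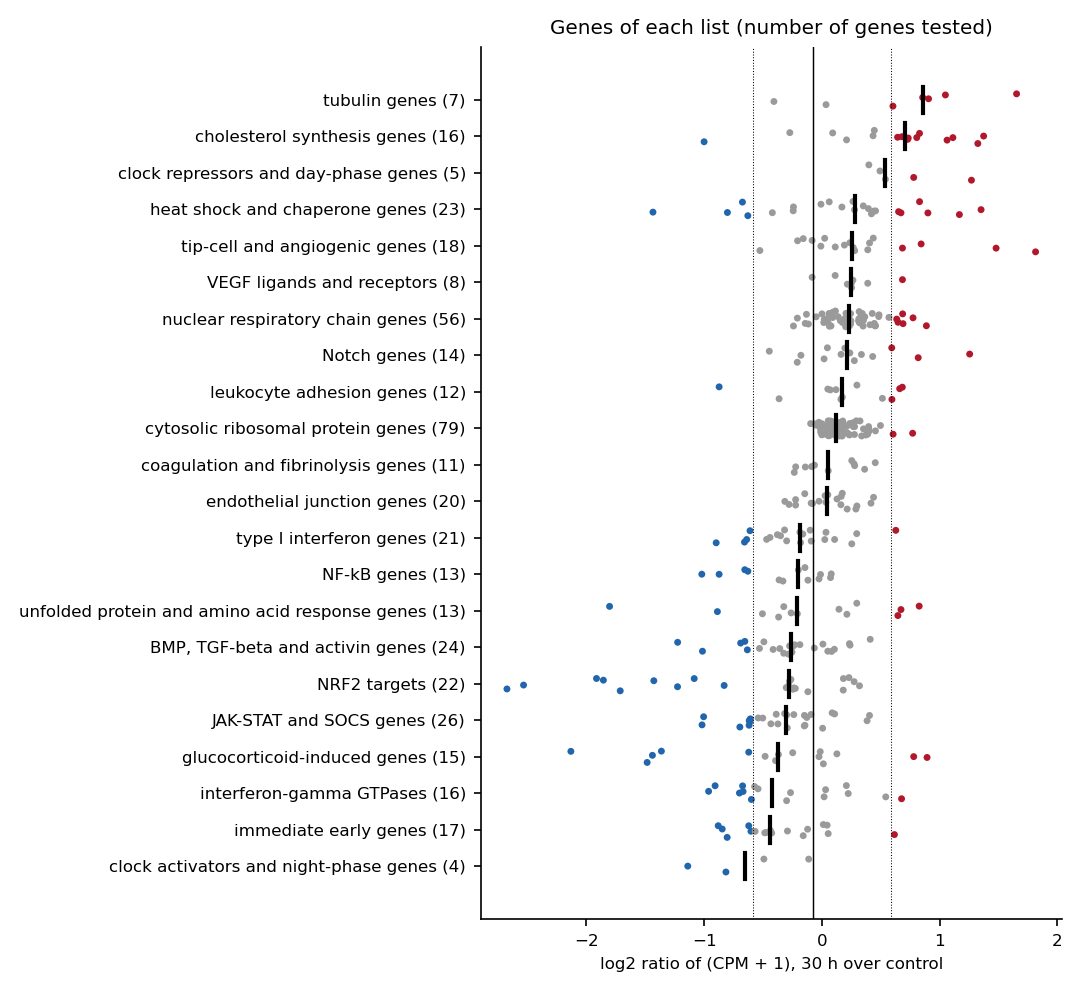
log2 ratio of (CPM + 1), 30 h over control, of each gene tested (points) in 22 gene lists, ordered by their median (thick bars), with the median of all genes (solid line) and the 1.5-fold limits (dotted lines). Tubulin and cholesterol synthesis genes have the highest medians, 0.86 and 0.70, and the night-phase clock genes the lowest, −0.65.

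Genes of the endothelial surface and its junctions were for the most part within the limit, as were all genes tested, of which 8.17% passed it. None of 20 junction genes and none of 11 coagulation and fibrinolysis genes passed 1.5-fold, with medians of 0.04 and 0.05. Cldn5, the tight junction claudin, had 1956 and 2612 CPM, and Vwf had a log2 ratio of −0.09. In the list of leukocyte adhesion genes 3 of 12 rose and Icam1 fell (median 0.17). Icam2, a constitutive integrin ligand, rose 1.61-fold from 663 to 1065 CPM, while Icam1 fell as given above, and Mcam and Podxl rose 1.59-fold and 1.51-fold. Cx3cl1, a membrane-bound chemokine, and Ackr4, a scavenging receptor, rose 1.57-fold and 1.68-fold beside Cxcl12, as 3 of 9 chemokine genes tested (median 0.40). Ccl21a, the lymphatic chemokine, had 150 and 205 CPM, nearly all of it from the few LEC-like barcodes described below. Of 17 flow and vasomotor genes Npr3, a clearance receptor of natriuretic peptides, rose 1.73-fold, and Edn1, endothelin, fell 1.55-fold (median 0.11), while Klf2 and Klf4, the factors of laminar flow, both had a log2 ratio of 0.32. Among 15 matrix genes Fbln5 alone passed the limit, 1.64-fold higher (median 0.11).

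Most genes of respiration and translation were higher at 30 h by less than 1.5-fold. Of 56 nuclear genes of the respiratory chain 50 were higher at 30 h, but only 6 passed 1.5-fold (median 0.23), and Atp5k and Atp5e, short subunits of ATP synthase, rose 1.86-fold and 1.71-fold. Of 79 ribosomal protein genes 70 were higher, 2 past the limit (Rpl35, 1.71-fold, and Rps29, 1.52-fold), with a median of 0.12. All 13 mitochondrially encoded genes were higher, 3 of them past the limit (median 0.17), and mt-Atp8, an ATP synthase subunit, rose 2.90-fold from 55.5 to 161 CPM (2.81 to 3.00) and mt-Nd3, of complex I, 1.70-fold from 517 to 879 CPM. These genes are short, and log2 ratios fell with the length of the gene on the chromosome over all genes tested. The median was 0.08 in the fifth of genes with the shortest span (median 4.96 kb) and −0.21 in the longest (132 kb), with 153 higher and 68 lower calls in the first and 34 and 123 in the last. With ratios centred within 20 bins of gene span, an alternative chosen after the data were seen, 409 genes were higher and 239 lower, and the medians of ribosomal proteins and of mitochondrially encoded genes were 0.03 and 0.02.

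Further lists hold genes of metabolism and survival. Eno1 alone of 14 glycolysis genes rose, 1.67-fold (median 0.08). Of 14 hypoxia genes 2 fell, P4ha2, a collagen hydroxylase, 2.21-fold and Bnip3, a mitophagy receptor, 1.68-fold (median −0.15). Of 13 Bcl2 family genes Bnip3 and Bcl2l11, a death-promoting member, fell (median −0.04). In the list of metallothionein and zinc genes Mt1 alone of 5 fell (median 0.17).

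Other genes among the 30 largest changes have varied roles. Camk1d, a calcium-dependent kinase, stood at 312 CPM in control, 413 CPM at 6 h and 1006 CPM at 30 h. It was several times higher in near-empty barcodes, at 1839 CPM in control and 4592 CPM at 30 h, and so also rose there. Gm42418, a model that can hold ribosomal RNA reads, had 4242 and 16839 CPM in the endothelial sums. In near-empty barcodes it too was higher, at 15464 and 62535 CPM. Whether counts of Camk1d hold such reads was not tested. Cmah, which makes a sialic acid, rose 3.15-fold from 15.8 to 49.9 CPM and was at 5.70 and 30.7 CPM in near-empty barcodes. Among the falls Kcnq5, a potassium channel, stood at 45.1, 15.7 and 11.5 CPM in control, at 6 h and at 30 h, whereas Qsox1, a sulfhydryl oxidase (238, 185 and 88.4 CPM), and Tle1, a corepressor (244, 218 and 93.7 CPM), lay nearer to control at 6 h. Spp1, osteopontin, fell 3.26-fold from 36.6 to 11.2 CPM but was at 140.3 and 50.4 CPM in near-empty barcodes.

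Sums over lists that mark other cells or ribosomal RNA differed between the libraries as well. The 9 gene models that can hold ribosomal RNA reads, such as Gm42418, Cmss1 and Cdk8, summed to 6083 CPM (0.608% of UMIs) in control and 24452 CPM (2.45%) at 30 h, and 7 of them rose and 1 fell, with medians of 1.77 to 2.01 within the 5 endothelial classes. The sum of the 5 red cell genes was 3249 CPM in control and 829 CPM at 30 h, with none at 0, and that of 14 epithelial genes 1587 and 1047 CPM. Macrophage genes summed to 104 and 70.5 CPM, lymphocyte genes to 11.7 and 38.2 CPM, neutrophil genes to 6.11 and 11.1 CPM, fibroblast genes to 84.3 and 111 CPM, pericyte genes to 107 and 112 CPM, platelet genes to 177 and 174 CPM, and melanoma genes to 23.5 and 20.7 CPM. Barcodes with 3 or more UMIs of the macrophage, lymphocyte, neutrophil, fibroblast, pericyte, platelet and melanoma lists together were set apart. They made up 27.0% of control barcodes and 34.2% at 30 h. The epithelial, red cell and ribosomal RNA lists were not part of this filter. Without the barcodes set apart 351 genes were higher and 381 lower, of which 325 and 341 were among the 344 and 375. The estimated share of free RNA, set by the epithelial genes, was 7.62% and 11.8% of UMIs, and its subtraction gave 343 higher and 359 lower genes.

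The changes were then followed within endothelial classes, called by the markers of each class. aCap-like barcodes made up 16.7% of endothelial barcodes in control (exact interval 16.04 to 17.4) and 20.2% at 30 h (19.4 to 21.1), a difference of 3.50 percentage points (2.42 to 4.58). The 5 markers that call this class summed to 634 CPM in control and 758 CPM at 30 h over all endothelial barcodes (median log2 ratio 0.41, 1 past 1.5-fold), and more barcodes of the class cannot be told apart from more marker RNA per barcode. Artery-like barcodes had 5.69% and 6.91%, vein-like barcodes 9.84% and 8.62%, lymphatic (LEC-like) barcodes 0.641% and 0.593%, and the remaining capillary barcodes, which hold the gCap, 67.1% and 63.6%. This last class is what the other calls left, with no capillary marker required. It can thus hold cells of the other classes with few marker UMIs. Each barcode was then thinned to 2000 UMIs and the limit for a class lowered from 3 UMIs to 1. The artery-like difference was 0.332 points (−0.502 to 1.17) and that of the remaining capillary barcodes −0.605 points (−2.00 to 0.787). Neither interval excluded 0. All intervals of shares cover counting error of 1 library a side, so they give no verdict on the treatment. Under the same setting aCap-like barcodes differed by 2.90 points (1.73 to 4.08) and vein-like barcodes by −2.48 points (−3.46 to −1.49), against −1.22 points unthinned. With a limit of 5 UMIs and no thinning the artery-like difference was 1.06 points (0.484 to 1.64) and the remaining capillary difference −2.82 points (−4.06 to −1.59). The aCap-like difference was then 2.61 points (1.61 to 3.61) and the vein-like difference −0.79 points (−1.50 to −0.077). Of the 344 genes that were higher in the sum, 336 (97.7%) were higher in aCap-like, artery-like, vein-like and remaining capillary barcodes alike, and 148 passed 1.5-fold in all 4. Of the 375 lower genes the counts were 371 (98.9%) and 149. None passed 1.5-fold in the opposite direction in any of the 4 classes, and weighting the classes as in control gave 336 higher and 357 lower genes. The genes were called from the sum of these same barcodes, and the remaining capillary class is its largest part. Agreement between the sum and its classes was thus partly fixed in advance and is given as a description. LEC-like barcodes numbered 72 and 55, and their ratios rest on few cells. In them 37 of the 344 higher and 27 of the 375 lower genes passed 1.5-fold in the opposite direction.

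**Figure D5:**
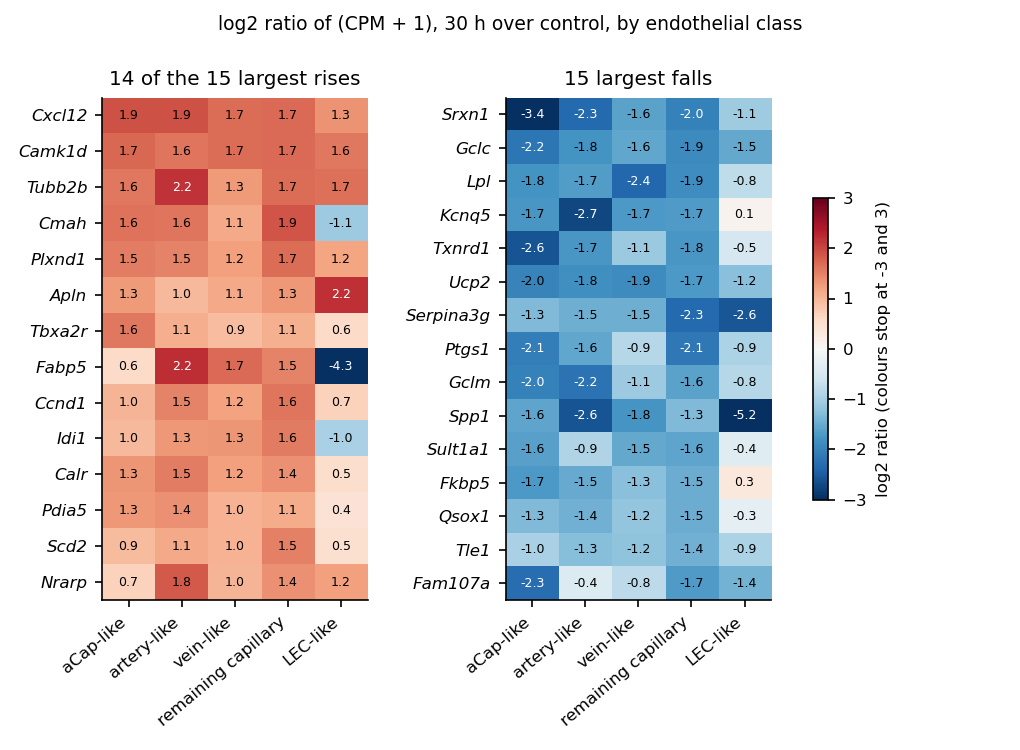
log2 ratio of (CPM + 1), 30 h over control, of 14 of the 15 largest rises and of the 15 largest falls in each endothelial class (columns), red for higher and blue for lower at 30 h. All genes shown keep their direction in the first 4 columns, and they were picked from the sum of the same barcodes. LEC-like barcodes numbered 72 in control and 55 at 30 h.

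Within classes the size of the changes varied. Srxn1 fell by 3.40 on the log2 scale in aCap-like barcodes, from 107 to 9.21 CPM, and by 2.33, 1.61 and 2.03 in artery-like, vein-like and remaining capillary barcodes. In aCap-like barcodes 12 of 22 NRF2 targets fell and the list's median was −0.67. It was −0.54 in artery-like, −0.29 in vein-like and −0.20 in remaining capillary barcodes. Fth1 had a log2 ratio of −0.75 in aCap-like and −0.03 in remaining capillary barcodes. Asns had −1.66 in aCap-like barcodes and between −0.32 and −0.24 in the other 3 classes. The excess of falls among interferon genes was not present in every class. Of 16 interferon-gamma GTPases 2 rose and 2 fell in aCap-like and in artery-like barcodes alike. In vein-like barcodes 1 rose and 6 fell, and in remaining capillary barcodes 1 and 7. Of 21 type I interferon genes 1 fell in aCap-like and 1 rose in artery-like barcodes. In vein-like barcodes 4 fell, and in remaining capillary barcodes 4 fell and 1 rose. Sterol genes had a median of 0.45 in aCap-like, 0.62 in artery-like, 0.63 in vein-like and 0.85 in remaining capillary barcodes. For tubulin genes the medians were 0.48, 1.10, 0.76 and 0.94 in the same order. Apln, at 108 CPM in aCap-like control barcodes and 265 CPM at 30 h, was at 15.03 CPM or less in artery-like, vein-like and remaining capillary barcodes. Cxcl12 rose from 1178 to 4403 CPM in artery-like barcodes and from 75.9 to 288 CPM in aCap-like ones. Fam107a fell by 2.27 in aCap-like barcodes and had −0.41 in artery-like ones. Differences between classes were not tested.

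The share of barcodes with a gene moved with the sums. After thinning to 2000 UMIs, which left out 195 control barcodes and 111 at 30 h, Cxcl12 was found in 29.4% of 11036 endothelial barcodes in control (28.6 to 30.3) and in 54.2% of 9167 at 30 h (53.2 to 55.2). In barcodes of the same libraries without a UMI of Pecam1 or Cdh5, the shares were 17.8% of 101 and 22.99% of 87. Lpl was found in 58.3% and 24.8% of endothelial barcodes, Ucp2 in 80.8% and 41.1%, and Gclm in 32.4% and 13.6%. In barcodes without endothelial UMIs the shares were 22.8% and 5.75% for Lpl, 49.5% and 33.3% for Ucp2, and 19.8% and 11.5% for Gclm. At 30 h the endothelial shares of Ucp2 and Gclm lay within the intervals of those shares (23.6 to 44.3 and 5.65 to 20.1). These intervals are wide because they rest on 87 barcodes, so such an overlap decides nothing about background. Calr was found in 25.7% and 51.2% of endothelial barcodes and Ccnd1 in 17.9% and 39.5%, with 31.7% and 37.9%, and 9.90% and 28.7%, in those without endothelial UMIs. In control the share of Calr likewise lay within the interval of its share in those barcodes (22.8 to 41.7). So did Apln, in control (3.56% against 0.241 to 6.97) and at 30 h (9.38% against 0.717 to 9.75). Of the Apln UMIs, however, 2069 of 2434 in control and 5400 of 6231 at 30 h lay in aCap-like barcodes. The share of Tubb2b also lay within the interval, in control (1.98% against 0.241 to 6.97) and at 30 h (6.34% against 0.717 to 9.75). At 30 h the same held for Ptgs1 (7.37% against 1.89 to 12.9) and Pim3 (13.6% against 4.05 to 17.3). Without thinning, at the median depths given above, Cxcl12 was found in 53.9% and 75.9%, and Lpl in 78.2% and 49.9%. Barcodes without endothelial UMIs had median depths of 2761 and 3426 UMIs. They met the same limits on genes and mitochondrial UMIs, so they can be other cells and not only background.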

How the data were processed

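The deposited matrices hold raw UMI counts for each gene in each barcode. Cell Ranger 7.2.0 and mm10 are named for them in the headers and in the submitters' processing notes, while an older version stands in the published methods. Whether intronic reads were counted is not given in the sources used here. The labels name 10x Genomics 3′ chemistry. The study's methods give another number of mice than the labels, and which holds was not settled. The matrices were unfiltered, with 32285 genes, of which 32158 (99.6%) had a position in GENCODE M21 (GRCm38). Library totals were 140601123 UMIs for control and 124085451 at 30 h.

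UMIs of all endothelial barcodes were summed per library and scaled to CPM (Python 3.11.15, numpy 2.4.6, scipy 1.17.1, pandas 2.3.3). The log2 ratio used a pseudocount of 1 CPM, on which scale the change of genes with few counts is understated. Genes were called by size alone, 1.5-fold at a mean of at least 10 CPM. Levels carry exact Poisson, ratios exact conditional binomial and shares Clopper-Pearson intervals. Intervals of differences of shares combine the Clopper-Pearson limits of both shares, in the manner of Newcombe but without Wilson limits. UMIs of a barcode are not replicates. A class was called from at least 3 UMIs and 2 detected markers, and ties and all other barcodes were the remaining capillary barcodes. The main sums kept doublets, and an alternative took out barcodes scored highest by Scrublet (scanpy 1.11.5), 0.8% for each 1000 barcodes. A symbol held by several IDs stood for the ID with most UMIs. The steps were tested on simulated data. Named genes were the 15 largest rises and 15 largest falls at a mean of at least 20 CPM outside the lists of other cells, mitochondrial and ribosomal RNA models and unnamed models, in each list the 2 genes with the highest mean and the 2 with the largest ratio, and the Pim genes, Bcl3, Inhbb, Cdh5 and Pecam1. List members beyond these were named after their values were seen. A few genes are not reported here. Members and lists were chosen with earlier results of these data known.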

Additional observations from a re-analysis of the deposited data

Results flagged for a closer look

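Near-empty barcodes (10 to 100 UMIs) lie outside the endothelial sums. Sums over 4 lists of other cells or ribosomal RNA models that were higher there at 30 h than in control are given here, and further lists also differed. The gene models that can hold ribosomal RNA reads summed to 84310.7 CPM at 30 h and 23549.8 CPM in control, a log2 ratio of 1.84 (1.82 to 1.86). Fibroblast genes summed to 796 and 466 CPM (0.77, 0.62 to 0.93), lymphocyte genes to 191 and 67.3 CPM (1.51, 1.12 to 1.92) and neutrophil genes to 64.5 and 41.0 CPM (0.65, 0.13 to 1.21), the last from 170 and 36 UMIs. In endothelial barcodes the same lists summed to 24452 and 6083 CPM, 111 and 84.3 CPM, 38.2 and 11.7 CPM, and 11.1 and 6.11 CPM. In the other direction red cell genes summed to 11149 CPM at 30 h and 62508 CPM in control in near-empty barcodes, and epithelial genes to 8871 and 20827 CPM. With mitochondrially encoded genes and ribosomal RNA models left out of the total, 395 genes were higher and 319 lower in the endothelial sums, of which 334 and 318 were among the 344 and 375.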

How the results depend on the processing

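No paired analysis was possible because each group is 1 library and the labels number no replicates. Among 17 alternatives, the 30 largest named changes kept their direction in all 493 values and stayed past 1.5-fold in each, though 160 values left the counting interval of the reported ratio. Of the 91 named genes past 1.5-fold none reversed, 28 of 1481 values, in 11 genes, lay under the limit, and 446 left the counting interval. Of 727 list medians 719 stayed within the interval of the reported median over its genes and 6 left it. For short lists that interval is the whole range of the members, as for the 8 prostanoid genes (−1.79 to 1.47). The alternatives also drew on the same libraries, so staying within was partly fixed in advance. Medians near 0 (Bcl2 family, matrix, lipid uptake, cell cycle, gCap marker, hypoxia, metallothionein, prostanoid and vasomotor genes) changed sign under at least 1 alternative. In 2 lists with a clearer direction the sign also changed: the median of cholesterol synthesis genes was −0.9998 at a mean of at least 50 CPM, where Mylip alone was left, and that of chemokine genes −0.0034 without a filter. The count of higher and lower genes was 151 and 182 at a mean of at least 50 CPM and 714 and 618 without a filter, since other genes were tested. Lower genes numbered 235 with ratios centred on the median and 239 with ratios centred within gene span bins. The last setting also gave medians of 0.21 for junction genes, 0.0242 for mitochondrially encoded genes and 0.0327 for ribosomal proteins, and centring on the median gave 0.20 for the last. The Serpina3 median was −1.26 with a pseudocount of 5 CPM and −0.38 without a filter. Thinned to 2000 UMIs, differences in shares were 0.332 points for artery-like, −2.48 for vein-like and −0.605 for remaining capillary barcodes, with a limit of 1 UMI in place of 3.

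Counts limit little here, and the number of libraries limits every comparison. Time after injection, treatment, animals, digestion and library run together, so a difference between the sums is a difference between these 2 libraries. Genes under 10 CPM were not called, and ratios of genes with many reads in near-empty barcodes include free RNA.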
